A study of Mus musculus with 6 samples.

Results

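The genes described here are 10 members of the integrated stress response and of serine synthesis, namely Atf4, Atf5, Ddit3, Trib3, Chac1, Asns, Phgdh, Psat1, Shmt2 and Mthfd2. They were chosen by symbol as genes of the ATF4 pathway known from mitochondrial stress. All 10 were among the 46095 genes of the count table, and all 10 passed the filter on low counts that left 14484 genes for testing. The samples were 3 hearts of STAT3cKO mice and 3 hearts of wild-type (WT) mice, profiled by RNA sequencing. In STAT3cKO mice the deletion of the transcription factor STAT3 is meant to be confined to cardiomyocytes, and the WT titles carry the abbreviation NC. Genotype is the factor named by the labels, which state no Cre driver, allele, strain, age, sex or treatment. They also do not say that every heart is a different animal, and if some share one, the p-values reflect a spread that may be technical. By this design endothelial cells, fibroblasts and the other cells of a STAT3cKO heart keep the gene, which was not tested here. Their RNA is part of each sample.

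The integrated stress response begins when kinases that sense amino acid shortage, unfolded proteins, haem or viral RNA phosphorylate the translation factor eIF2. Most protein synthesis then slows, while mRNAs such as that of ATF4 are translated more, so that the level of Atf4 mRNA is only part of its control. ATF4 binds DNA with C/EBP-family partners and turns on genes for amino acid synthesis and transport, for serine and folate metabolism in mitochondria, and for the factors CHOP and TRIB3. In heart muscle this programme is known as a response to failing mitochondria.

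ATF4 with its partners recognises the C/EBP-ATF response element, searched here as TGATGNAA on both strands in the RefSeq promoter windows of GRCm38.p6, which run from 250 bases before to 50 bases after each annotated start. All 10 members had a window, and Asns, Chac1 and Trib3 held the motif. Of all genes with such a window 4.51% held it. The stretches around these matches are shown because they are the places in the members' promoters that carry the ATF4 motif. Each is written on the strand of the gene with the motif in capitals. In Chac1 and Trib3 the motif lies on the opposite strand, so the capitals are its reverse complement.
Chac1, chr2:119351023-119351082, plus strand: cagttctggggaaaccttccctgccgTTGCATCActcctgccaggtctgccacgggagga
Asns, chr6:7693210-7693258, minus strand: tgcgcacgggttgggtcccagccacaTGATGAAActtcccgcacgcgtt
Trib3, chr2:152344028-152344057, minus strand: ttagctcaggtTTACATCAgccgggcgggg
Measured from the RefSeq start, the Chac1 motif ended 185 bases and the Asns motif 15 bases before it, and the Trib3 motif lay after it. The GENCODE positions given below place 2 of them differently, with the Trib3 motif before the gene and the Asns motif inside it. The STAT motif TTCNNNGAA, which reads the same on both strands in its fixed letters, was present in the window of Shmt2 alone among the members. This share, 1 of 10, is near the 9.55% of all genes that held it. In Shmt2 the motif ended 46 bases before the RefSeq start.
Shmt2, chr10:127522466-127522524, minus strand: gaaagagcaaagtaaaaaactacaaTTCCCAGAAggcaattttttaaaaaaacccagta
A match describes letters in these windows only. Of the 3 members with the ATF4 motif, Trib3 was higher in STAT3cKO hearts, while Asns and Chac1 did not pass the test. Shmt2, the member with the STAT motif, was lower. Whether either motif bears on these levels was not tested.

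Total counts per heart ran from 15416877 to 18264052. Levels are given as CPM, counts scaled to library size with edgeR's TMM factors, and a gene is called higher or lower where its adjusted p, from edgeR's quasi-likelihood test with Benjamini-Hochberg adjustment over all 14484 genes, was under 0.05. Log2 fold changes are STAT3cKO minus WT. Stat3 itself stood at 52.9, 63.7 and 59.6 CPM in STAT3cKO replicates 3, 6 and 91, against 99.7, 85.8 and 97.5 CPM in WT replicates 1, 3 and 4, lower in every STAT3cKO heart (log2 fold change -0.68 ± 0.10 (SE), edgeR adjusted p = 0.000677). Fold changes of all genes followed transcript length, with slopes of log2 CPM, centred on each gene's mean over the 6 hearts, per doubling of length of -0.110, -0.082 and -0.114 in those STAT3cKO hearts and 0.048, 0.109 and 0.149 in those WT hearts (exact permutation test, two-sided, p = 0.1, which 3 hearts a group cannot go below). Each member is therefore also given from a fit that removes a trend in length and GC content, called the length-corrected fit. Because the slopes split by genotype, a technical trend and a genotype difference that goes with length cannot be told apart. The length-corrected fit removes both.

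Of the 10 members, 3 were higher in STAT3cKO hearts (Mthfd2, Trib3 and Atf4), 1 was lower (Shmt2) and 6 did not pass (Atf5, Ddit3, Chac1, Asns, Phgdh and Psat1). These are whole hearts, in which fewer cells of a type and less RNA per cell cannot be told apart. Over all genes tested, 25.8% passed, 13.2% higher and 12.6% lower. In the length-corrected fit 2 members were higher (Mthfd2 and Trib3) and 1 was lower (Shmt2), against 10.9% and 7.91% of all genes. The members had a median log2 fold change of 0.35, against 0.00 over all genes, and 8 of the 10 had a value above 0, against 7230 of 14484 genes. The members' transcripts are shorter than most (median 2018 bases, against 3326 over the genes tested), and in the length-corrected fit the members' median was 0.20, against 0.02 over all genes. Complete separation of the groups was seen for 4 of the 10 members, the 4 that passed, against 43.0% of all genes, so this share is near the background. Mthfd2 and Shmt2 passed in the same direction in each of the 16 other fits tried, and the calls of Atf4 and Trib3 were lost in several of them. With 1 heart left out, the number of members that were higher was 5 without STAT3cKO replicate 6, 2 without WT replicate 3, and 1 without STAT3cKO replicate 3, STAT3cKO replicate 91, WT replicate 1 or WT replicate 4.

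**Figure D1:**
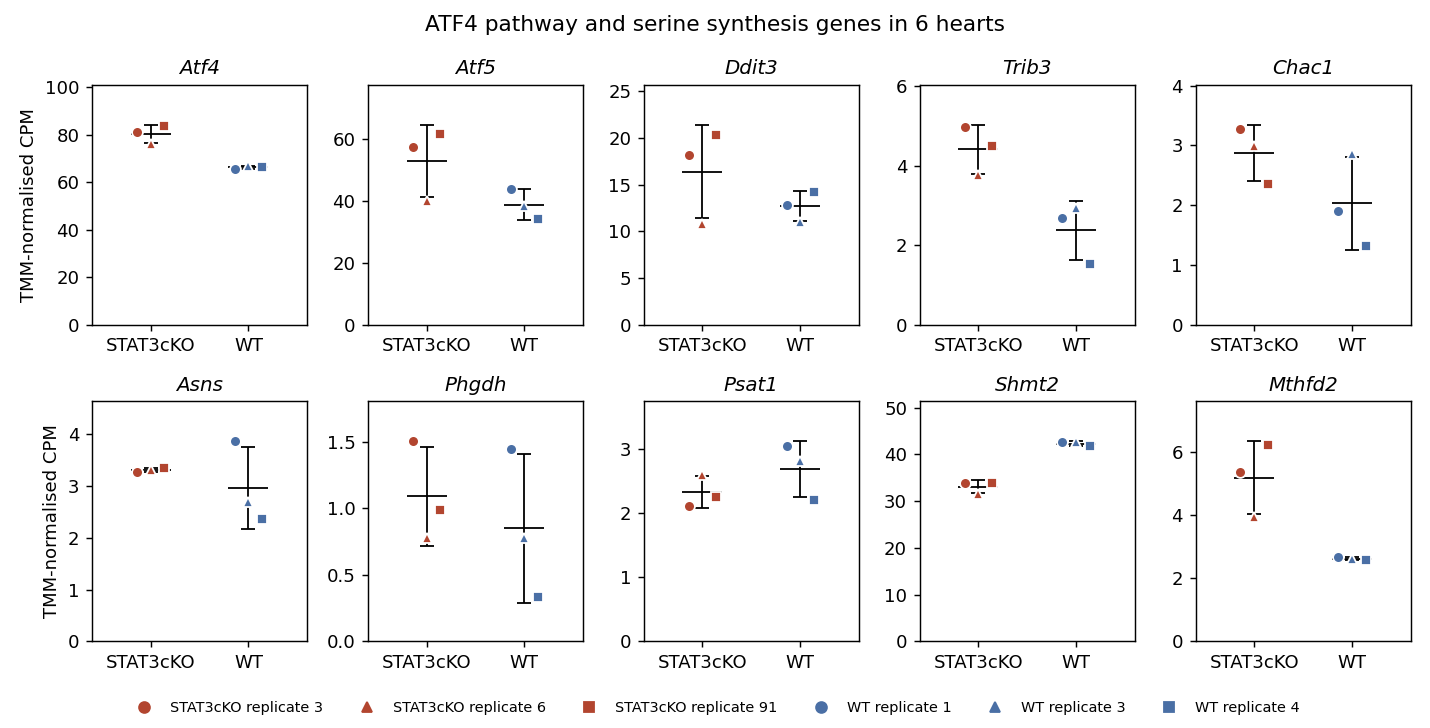
TMM-normalised CPM of the 10 members in each heart (y axes start at 0 and differ between genes), with the mean and SD of the 3 STAT3cKO hearts at the left and of the 3 WT hearts at the right. The groups stand apart for Atf4, Trib3, Shmt2 and Mthfd2 and overlap for the other 6.

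Atf4, the transcription factor at the centre of the response (chromosome 15, 80255184 to 80257541, plus strand; positions of genes are those of GENCODE M21 on GRCm38), was at 81.1, 75.9 and 83.5 CPM in STAT3cKO replicates 3, 6 and 91, against 65.5, 66.9 and 66.2 CPM in WT replicates 1, 3 and 4. All 3 STAT3cKO hearts were above all 3 WT hearts, and the WT hearts lay within a narrow band. The mean of Atf4 was 80.2 ± 3.89 CPM in STAT3cKO and 66.2 ± 0.726 CPM in WT (SD, n = 3 each). With 1122 to 1272 counts per WT heart, the SD of the WT hearts cannot be read as a small spread between them. The log2 fold change was 0.28 ± 0.08 (SE), a rise of 21.1% (95% interval of the log2 fold change 0.10 to 0.46, edgeR adjusted p = 0.0274). The call was not stable. It was lost in the length-corrected fit (log2 fold change 0.17, adjusted p = 0.150), without the low-count filter (0.0723) and without STAT3cKO replicate 3 (adjusted p of the edgeR test 0.0786), STAT3cKO replicate 91 (0.0781), WT replicate 1 (0.0751), WT replicate 3 (0.081) or WT replicate 4 (0.0752).

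Atf5, a related factor that is also controlled at translation and is known as a regulator of the mitochondrial unfolded protein response (chromosome 7, 44812256 to 44816658, minus strand), was at 57.2, 39.8 and 61.6 CPM in STAT3cKO replicates 3, 6 and 91, against 43.9, 38.2 and 34.0 CPM in the WT hearts in the order 1, 3 and 4. Replicates 3 and 91 of STAT3cKO were above all WT hearts, and replicate 6 lay among them. The log2 fold change was 0.45 ± 0.16 (SE, 95% interval 0.10 to 0.80), and it did not pass after adjustment (edgeR adjusted p = 0.0626). It passed without STAT3cKO replicate 6 (log2 fold change 0.62, adjusted p = 0.00249) and, with all 6 hearts, in DESeq2 (adjusted p = 0.0236) and without the low-count filter (0.43, edgeR adjusted p = 0.00116), and in the length-corrected fit its log2 fold change was 0.29 (adjusted p = 0.120). Of its 1993 exon bases 82 are shared with Il4i1 and Nup62 on the other strand, and the strand setting of the counting is not given in the sources used here.

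Ddit3 encodes CHOP, a factor that ATF4 induces and that promotes cell death in prolonged stress (chromosome 10, 127290774 to 127296288, plus strand). It was at 18.2, 10.8 and 20.3 CPM in STAT3cKO replicates 3, 6 and 91, against 12.8, 11 and 14.3 CPM in WT replicates 1, 3 and 4. The highest values were again those of STAT3cKO replicates 3 and 91, and STAT3cKO replicate 6 held the lowest level of all 6 hearts. Its fitted difference of 0.37 ± 0.21 on the log2 scale (SE, 95% interval -0.10 to 0.84) did not pass (edgeR adjusted p = 0.226). Without STAT3cKO replicate 6 it was 0.60 and passed (adjusted p = 0.00774), without STAT3cKO replicate 91 it was 0.19 (0.552), and in the length-corrected fit it was 0.04 (adjusted p = 0.920). Ddit3 has the shortest transcript of the 10 members, 969 bases, and 81 of its 1713 exon bases overlap Mars and Gm4189 on the other strand.

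Trib3, a pseudokinase that CHOP and ATF4 induce and that in turn dampens ATF4 and AKT signalling (chromosome 2, 152337422 to 152344032, minus strand), was at 4.98, 3.77 and 4.49 CPM in STAT3cKO replicates 3, 6 and 91, against 2.68, 2.92 and 1.54 CPM in WT replicates 1, 3 and 4. Every STAT3cKO heart was above every WT heart, and WT replicate 4 stood lowest. These levels rest on 58 to 82 counts per STAT3cKO heart and 28 to 52 per WT heart. The means were 4.41 ± 0.612 CPM in STAT3cKO and 2.38 ± 0.74 CPM in WT (SD, n = 3 each), a 1.85-fold level (log2 fold change 0.89 ± 0.27 (SE), 95% interval 0.31 to 1.47, edgeR adjusted p = 0.0285). The call was kept in the length-corrected fit (0.78, adjusted p = 0.0488). It was lost without STAT3cKO replicate 3 (adjusted p = 0.0964), STAT3cKO replicate 91 (0.0602), WT replicate 1 (0.0524) or WT replicate 4 (0.0999).

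Chac1, an enzyme that breaks down glutathione and is induced by ATF4 (chromosome 2, 119351229 to 119354381, plus strand), was at 3.28, 2.99 and 2.35 CPM in STAT3cKO replicates 3, 6 and 91, against 1.90, 2.86 and 1.32 CPM in WT replicates 1, 3 and 4. STAT3cKO replicate 91 lay below WT replicate 3, so the groups overlapped. The log2 fold change of 0.50 ± 0.31 (SE) had a 95% interval of -0.17 to 1.18 (edgeR adjusted p = 0.255), and the length-corrected value was 0.33 (0.482). It was 0.82 without WT replicate 3 (adjusted p = 0.105) and 0.27 without WT replicate 4 (0.587). Here STAT3cKO replicate 91 was the lowest of its group, in contrast to Atf4, Atf5 and Ddit3, where it was the highest.

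Asns makes asparagine from aspartate and is a classical target of ATF4 under amino acid shortage (chromosome 6, 7675169 to 7693254, minus strand). Its level was nearly the same in STAT3cKO replicates 3, 6 and 91, at 3.28, 3.31 and 3.34 CPM, against 3.86, 2.68 and 2.36 CPM in WT replicates 1, 3 and 4. The STAT3cKO values lay inside the range of the WT values. They rest on 48, 51 and 61 counts, too few for their near equality to measure the spread between hearts. The log2 fold change was 0.15 ± 0.25 (SE, 95% interval -0.39 to 0.69, edgeR adjusted p = 0.682), from 43 to 75 counts per heart, and 0.06 in the length-corrected fit (0.896). It was 0.39 without WT replicate 1 (adjusted p = 0.324), 0.083 without WT replicate 3 (0.863) and 0.0099 without WT replicate 4 (0.986).

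Phgdh and Psat1 catalyse the first steps by which cells make serine from an intermediate of glycolysis. Phgdh (chromosome 3, 98313170 to 98339990, minus strand) was the lowest member, with 22, 12 and 18 counts in STAT3cKO replicates 3, 6 and 91, against 28, 13 and 6 counts in WT replicates 1, 3 and 4. These counts correspond to 1.5, 0.779 and 0.985 CPM in STAT3cKO hearts, against 1.44, 0.775 and 0.329 CPM in WT hearts. The ranges overlapped over most of their width, and the log2 fold change of 0.34 ± 0.50 (SE) had a 95% interval of -0.74 to 1.42 (edgeR adjusted p = 0.648). It was 0.97 without WT replicate 1 (adjusted p = 0.229) and -0.047 without WT replicate 4 (0.959), and 0.22 in the length-corrected fit (0.789), so its direction rests on single hearts. Without STAT3cKO replicate 3 it was 0.052 (adjusted p = 0.958) and without STAT3cKO replicate 6 it was 0.52 (0.513).

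Psat1 (chromosome 19, 15904678 to 15947337, minus strand) was at 2.12, 2.60 and 2.24 CPM in STAT3cKO replicates 3, 6 and 91, against 3.04, 2.80 and 2.19 CPM in WT replicates 1, 3 and 4. Besides Shmt2 it was the only member with a log2 fold change below 0, and the groups overlapped. The value was -0.21 ± 0.26 (SE, 95% interval -0.77 to 0.35, edgeR adjusted p = 0.581), and -0.23 in the length-corrected fit (0.569). It was -0.11 without WT replicate 1 (adjusted p = 0.829) and -0.33 without WT replicate 4 (0.441).

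Shmt2, the mitochondrial enzyme that splits serine into glycine and a carbon unit carried by folate (chromosome 10, 127517123 to 127522444, minus strand), was lower in STAT3cKO hearts. It stood at 33.9, 31.4 and 33.9 CPM in STAT3cKO replicates 3, 6 and 91, against 42.6, 42.5 and 41.7 CPM in WT replicates 1, 3 and 4. The groups lay well apart, with means of 33.1 ± 1.43 CPM in STAT3cKO and 42.3 ± 0.467 CPM in WT (SD, n = 3 each). With 484 to 827 counts per heart, these SDs cannot be read as a small spread between hearts. The log2 fold change was -0.35 ± 0.09 (SE, 95% interval -0.55 to -0.16), a level 0.782 times that of WT hearts (edgeR adjusted p = 0.0138). It was -0.43 in the length-corrected fit (adjusted p = 0.00561). With each heart left out in turn Shmt2 kept its call (log2 fold change -0.37 to -0.32, largest adjusted p = 0.0455). Of its 3109 exon bases 32 overlap Ndufa4l2 on the other strand.

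Mthfd2, the mitochondrial enzyme that oxidises the folate-bound unit made by SHMT2 and is among the genes most often induced by mitochondrial damage (chromosome 6, 83305691 to 83325908, minus strand), was higher in STAT3cKO hearts. It was at 5.39, 3.96 and 6.24 CPM in STAT3cKO replicates 3, 6 and 91, against 2.68, 2.62 and 2.58 CPM in WT replicates 1, 3 and 4. The WT hearts were almost equal, and the STAT3cKO hearts were all above them but spread widely, with replicate 6 lowest and replicate 91 highest. The means were 5.20 ± 1.15 CPM in STAT3cKO and 2.63 ± 0.049 CPM in WT (SD, n = 3 each), from 61 to 114 counts per STAT3cKO heart and 44 to 52 per WT heart. At such counts the small SD of the WT hearts cannot be read as a small spread between them. Mthfd2 stood at 1.98 times its WT level (log2 fold change 0.99 ± 0.23 (SE), 95% interval 0.49 to 1.48, edgeR adjusted p = 0.00854). It was 0.91 in the length-corrected fit (adjusted p = 0.015), and with each heart left out in turn 0.84 to 1.15 (largest adjusted p = 0.0374). Mthfd2 was thus higher and Shmt2 lower in the same hearts.

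**Figure D2:**
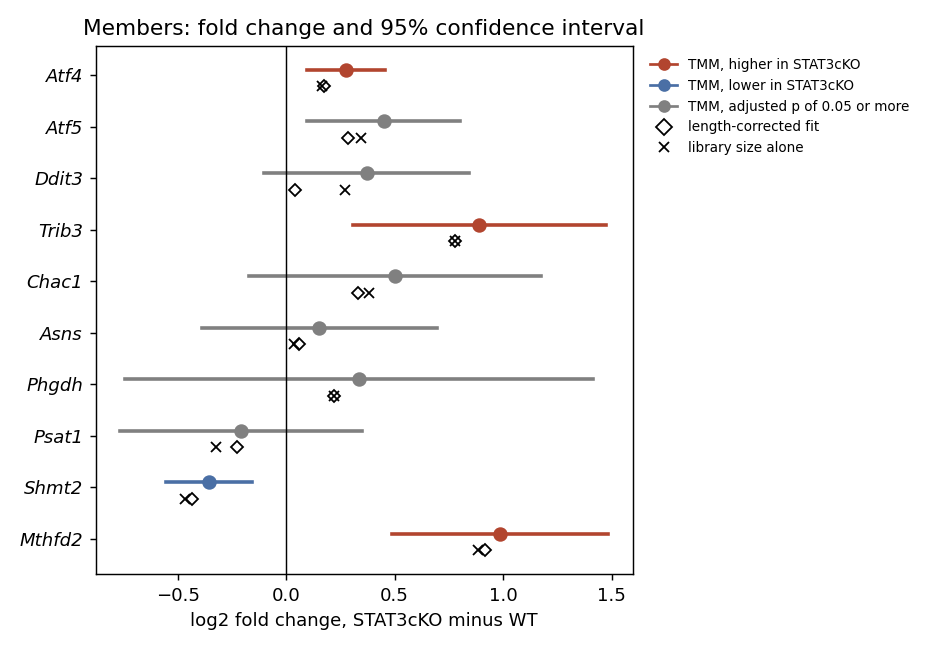
Log2 fold change of each member, STAT3cKO minus WT, with its 95% confidence interval (circles and bars, coloured where the adjusted p was under 0.05), and the value in the length-corrected fit (diamonds) or with library size as the only scaling (crosses). The intervals of Mthfd2, Trib3 and Atf4 lie above 0 and that of Shmt2 below 0, and the interval of Atf5 lies above 0 although its adjusted p was 0.0626.

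Levels can be compared between members only per length of transcript. Per kilobase of the longest annotated transcript, Atf4 was the most abundant member, with 39.7 ± 1.93 CPM in STAT3cKO and 32.8 ± 0.36 CPM in WT hearts (SD, n = 3 each, here and in this paragraph). Atf5 followed with 29.1 ± 6.36 CPM per kilobase in STAT3cKO and 21.3 ± 2.74 in WT hearts. Ddit3 had 16.9 ± 5.16 CPM per kilobase in STAT3cKO hearts, where it did not stand apart from Shmt2 with 14.4 ± 0.626. In WT hearts Ddit3 had 13.1 ± 1.67 and Shmt2 18.5 ± 0.204 CPM per kilobase, so Shmt2 ranked above Ddit3 there. The other 6 members were far lower. In STAT3cKO hearts Mthfd2 (2.49 ± 0.553 CPM per kilobase), Trib3 (2.18 ± 0.302), Chac1 (1.75 ± 0.288) and Asns (1.64 ± 0.016) followed. The range of mean ± SD of each overlapped that of the next. In WT hearts the order of these 4 was Asns (1.47 ± 0.392 CPM per kilobase), Mthfd2 (1.26 ± 0.024), Chac1 (1.24 ± 0.477) and Trib3 (1.17 ± 0.365), again with overlapping ranges. Psat1 had 0.886 ± 0.095 CPM per kilobase in STAT3cKO and 1.02 ± 0.166 in WT hearts. Phgdh was lowest in both, with 0.575 ± 0.197 CPM per kilobase in STAT3cKO and 0.448 ± 0.296 in WT hearts.

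**Figure D3:**
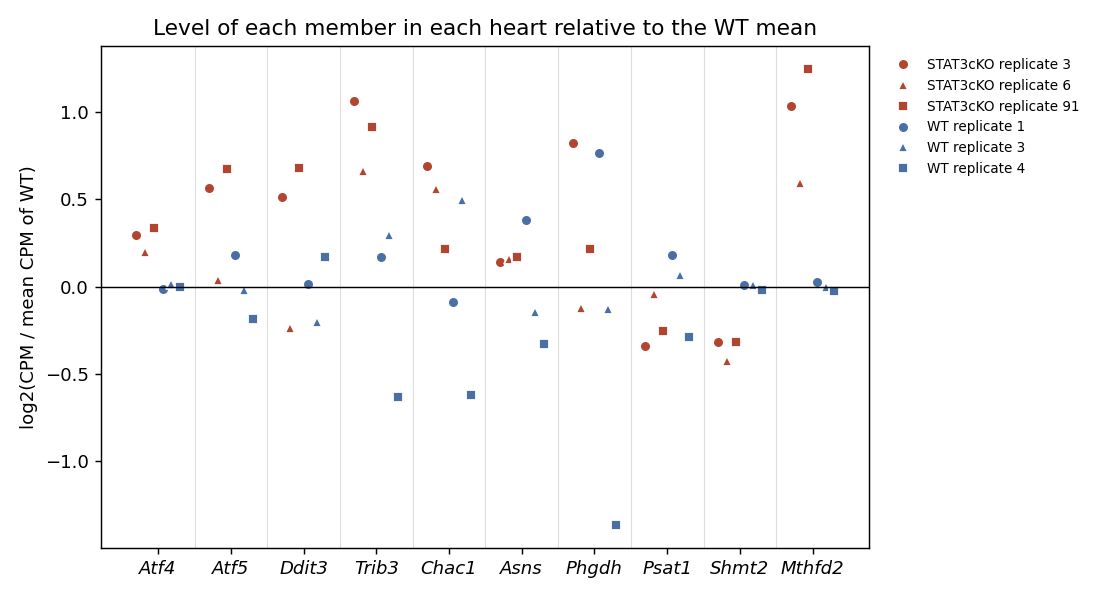
Log2 ratio of each member's CPM in each heart to its mean CPM in WT hearts (y axis), for the 3 STAT3cKO hearts (red) and the 3 WT hearts (blue). STAT3cKO replicate 6 is the lowest red point for 7 of the 10 members, and WT replicate 4 is the lowest blue point for 8.

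The STAT3cKO hearts differed among themselves. Replicate 6 was the lowest of the 3 STAT3cKO hearts for 7 of the 10 members (Atf4, Atf5, Ddit3, Trib3, Phgdh, Shmt2 and Mthfd2), against 36.2% of all genes tested. Replicate 91 was the highest for 5 members (Atf4, Atf5, Ddit3, Asns and Mthfd2), against 33.5% of all genes. The full order, replicate 91 above 3 above 6, was shared by Atf4, Atf5, Ddit3 and Mthfd2, and by 19.1% of all genes. In the WT hearts, replicate 4 was the lowest for 8 members and replicate 1 the highest for 6, against 35.1% of all genes in each case. With library size as the only scaling, STAT3cKO replicate 6 was lowest for 8 members and WT replicate 4 for 9. These orders are descriptions of 6 samples, noticed after the values were seen, and members of a pathway are not independent of each other.

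Scaling by library size alone put the median over all genes at -0.11 on the log2 scale, and 29.0% of the calls over all genes were then higher, in place of 51.3%. Atf4 had a log2 fold change of 0.17 in that fit (edgeR adjusted p = 0.230), which is 0.28 above that median, and Trib3 had 0.78 (adjusted p = 0.0577), which is 0.89 above it. Mthfd2 (0.88, adjusted p = 0.0206) and Shmt2 (-0.46, adjusted p = 0.00705) passed.

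Markers of several cell types other than cardiomyocytes also differed between the groups, while the sums of fibroblast markers overlapped. Summed over 8 markers each, cardiomyocyte genes held 67905 to 77105 CPM in STAT3cKO and 54865 to 60089 CPM in WT hearts, with 4 higher and 1 lower. Endothelial markers held 1489 to 1686 CPM in STAT3cKO and 1746 to 2119 CPM in WT hearts (5 lower and 0 higher, but 1 higher without STAT3cKO replicate 6 or WT replicate 1). They went both ways, since 3 of the 8 endothelial markers had a log2 fold change above 0, none of which passed with all 6 hearts. Smooth muscle and pericyte markers held 693 to 814 CPM in STAT3cKO and 1074 to 1246 CPM in WT hearts (4 lower, but 2 without STAT3cKO replicate 91). Macrophage markers held 170 to 257 CPM in STAT3cKO and 292 to 354 CPM in WT hearts (4 lower, and 3 to 5 with a heart left out). Without WT replicate 1, 3 of the 8 macrophage markers had a log2 fold change above 0, against 0 with all 6 hearts. Fibroblast markers held 3422 to 4121 CPM in STAT3cKO and 2671 to 3922 CPM in WT hearts, with 1 higher and 2 lower (1 lower without STAT3cKO replicate 3 or 6 or WT replicate 3). The sum of 6 red blood cell transcripts was 337 to 691 CPM in STAT3cKO and 92.3 to 161 CPM in WT hearts (5 higher, but 2 without STAT3cKO replicate 91, 1 without WT replicate 3 and 0 without WT replicate 1 or 4). None of these markers was at 0 in every heart, and their part in the differences of the members was not tested.

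**Figure D4:**
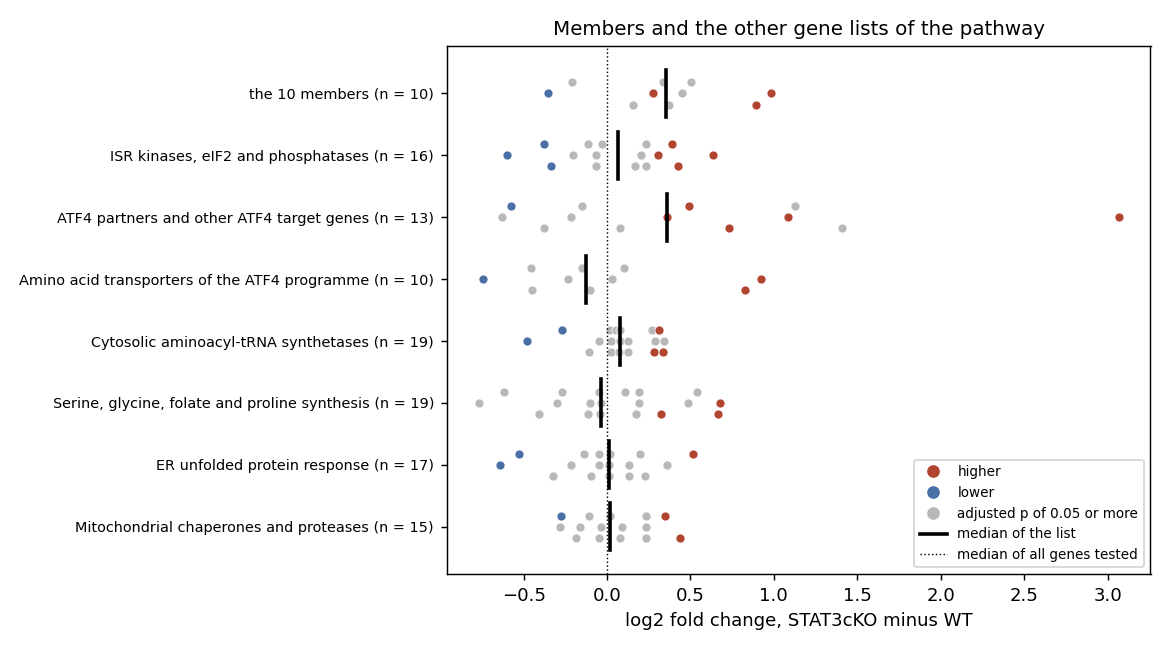
Log2 fold change, STAT3cKO minus WT, of each tested gene (points) in the 10 members and in 7 other gene lists of the pathway, with the median of each list (black bar) and of all genes tested (dotted line). The medians of the members (0.35) and of the list of ATF4 partners and other targets (0.36) lie to the right of those of the other 6 lists, which run from -0.13 to 0.08; in the length-corrected fit, not plotted, they were 0.20 and 0.31, against -0.03 to 0.14.

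Further ATF4 partners and targets went both ways, with 5 of 13 tested genes higher and 1 lower (median log2 fold change 0.36). Gdf15, a circulating stress hormone, was at 7.10, 3.83 and 14.5 CPM in STAT3cKO replicates 3, 6 and 91, against 0.875, 0.954 and 1.21 CPM in WT replicates 1, 3 and 4 (log2 fold change 3.07 ± 0.51 (SE), edgeR adjusted p = 0.00464). Among the STAT3cKO hearts it followed the same order as Atf4, Atf5, Ddit3 and Mthfd2. Eif4ebp1, a brake on translation, had a log2 fold change of 0.36 (adjusted p = 0.015), the cell cycle inhibitor Cdkn1a 1.08 (0.0182) and the ATF4 partner Cebpb 0.49 (0.0203). Atf3 was the other higher gene (0.73, adjusted p = 0.0292) and Stc2 the lower one (-0.58, 0.0209), both named after their values were seen. Without WT replicate 1 only Gdf15 remained higher, since Eif4ebp1 (adjusted p = 0.0545), Cdkn1a (0.0531), Cebpb (0.0628) and Atf3 (0.107) then did not pass. Cdkn1a was also lost without STAT3cKO replicate 91 (0.0532), Cebpb without STAT3cKO replicate 6 (0.0527) or WT replicate 4 (0.0851), and Atf3 without STAT3cKO replicate 3 (0.125) or WT replicate 3 (0.0778). Stc2 was lost without STAT3cKO replicate 3 (0.0646), WT replicate 3 (0.0838) or WT replicate 4 (0.0693), and 2 genes were lower without STAT3cKO replicate 91. In the length-corrected fit Cebpb (0.31, 0.174), Eif4ebp1 (0.26, 0.0636), Atf3 (0.65, 0.0635) and Stc2 (-0.48, 0.0535) did not pass, and with library size alone Eif4ebp1 (0.0806), Cebpb (0.0704) and Atf3 (0.0604) did not. Fgf21, another hormone of this response, had 0, 4 and 0 counts in STAT3cKO and 1, 0 and 0 counts in WT hearts, too few to test.

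Upstream of ATF4, among 16 genes for the eIF2 kinases, eIF2B and their regulators, 4 were higher and 3 lower (median 0.07). Impact, an inhibitor of the kinase GCN2, was higher (log2 fold change 0.63, edgeR adjusted p = 0.000996), and Eif2ak2, the kinase PKR, was lower (-0.60, 0.00593), and both passed with each heart left out. Ppp1r15b, a subunit that directs a phosphatase to eIF2, was lower (-0.38, adjusted p = 0.0157), but not without WT replicate 4 (0.0734) or in the length-corrected fit (-0.16, 0.286). Eif2ak1, the haem-regulated kinase through which mitochondrial stress is relayed, was lower (-0.33, adjusted p = 0.0268), and its call was lost without STAT3cKO replicate 3 (0.0687), STAT3cKO replicate 91 (0.0638), WT replicate 3 (0.119) or WT replicate 4 (0.0645), and in the length-corrected fit (-0.21, 0.139). The others that were higher, named after their values were seen, were Ppp1r15a (0.43), Eif2b3 (0.39) and Eif2b1 (0.31), none of which passed with library size alone (0.108 to 0.203). Eif2b3 was lost with any 1 heart left out (0.0604 to 0.119), and Eif2b1 with any except STAT3cKO replicate 91 (0.091 to 0.119). Ppp1r15a was lost without STAT3cKO replicate 6 or 91 or WT replicate 1 or 4 (0.0725 to 0.106). In DESeq2 Eif2b3 (adjusted p = 0.0769) and Eif2b1 (0.0803) did not pass. Left-out hearts lowered the number that was higher to 2 (without STAT3cKO replicate 3, STAT3cKO replicate 91 or WT replicate 3) or 1 (without STAT3cKO replicate 6, WT replicate 1 or WT replicate 4), and the number that was lower to 1 without WT replicate 4. Eif2ak3 and Eif2ak4, the kinases PERK and GCN2, had log2 fold changes of -0.07 and 0.17 (adjusted p = 0.773 and 0.493). The pair was named after its values were seen, as were Oma1 (-0.11, 0.621) and Dele1 (-0.20, 0.170), which carry the signal from mitochondria to Eif2ak1.

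Serine, glycine, folate and proline synthesis beyond the members gave 3 higher and 0 lower of 19 tested genes (median -0.03). At an unadjusted p under 0.05, Mthfd1, Aldh1l1 and Aldh1l2 had a negative fold change, and DESeq2 called 1 lower. At the same threshold Psph had a positive one (log2 fold change 0.49, edgeR adjusted p = 0.0982). It was at 7.23, 5.71 and 4.82 CPM in STAT3cKO replicates 3, 6 and 91, against 4.22, 4.35 and 4.06 CPM in WT replicates 1, 3 and 4. All of these were named after their values were seen. Gcsh (log2 fold change 0.33, edgeR adjusted p = 0.0256) and Amt (0.68, 0.0259) belong to the glycine cleavage system, and Shmt1 (0.66, 0.0441) is the cytosolic counterpart of Shmt2. Their calls were fragile. Gcsh was lost in the length-corrected fit (0.13, adjusted p = 0.397), as was Shmt1 (0.67, 0.0544), and all 3 with library size alone (0.0640 to 0.151). Gcsh was also lost without STAT3cKO replicate 3 (0.101), WT replicate 1 (0.0505) or WT replicate 3 (0.118), Amt without STAT3cKO replicate 6 (0.0692), STAT3cKO replicate 91 (0.0535), WT replicate 1 (0.0745) or WT replicate 4 (0.0834), and Shmt1 without STAT3cKO replicate 3 (0.0683), STAT3cKO replicate 6 (0.148), WT replicate 1 (0.124) or WT replicate 3 (0.147). The number that was higher fell to 0 without WT replicate 1, and to 1 without STAT3cKO replicate 3 or 6 or WT replicate 3. Left-out hearts also gave 1 lower gene (without STAT3cKO replicate 3 or WT replicate 1) or 2 (without STAT3cKO replicate 6).

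Amino acid transporters of the ATF4 programme gave 2 higher and 1 lower of 10 tested (median -0.13). The neutral amino acid carrier Slc1a5 was higher (log2 fold change 0.82, edgeR adjusted p = 0.000906), whereas the glutamine carrier Slc38a1 was lower (-0.75, 0.0055), both also with each heart left out. In the length-corrected fit Slc38a1 was at -0.45 (0.0496). The glutamate carrier Slc1a3 was higher (0.92, adjusted p = 0.0187), but not without STAT3cKO replicate 3 (0.0925), WT replicate 1 (0.0551) or WT replicate 4 (0.0616). Cytosolic aminoacyl-tRNA synthetases gave 3 higher and 2 lower of 19 (median 0.08). Wars was lower (-0.48, adjusted p = 0.00936), also with each heart left out. Dars (0.34, 0.0169), Lars (0.28, 0.0308) and Farsb (0.31, 0.0435) were higher, and Iars, named after its values were seen, was lower (-0.27, 0.0435). None of these 4 kept its call without STAT3cKO replicate 3 (0.0579, 0.0774, 0.0682 and 0.0662), and 0 synthetases were higher without STAT3cKO replicate 3 or WT replicate 3, 1 without STAT3cKO replicate 91 or WT replicate 1, and 2 without STAT3cKO replicate 6 or WT replicate 4. Iars (0.057 to 0.156) and Farsb (0.054 to 0.128) were each lost with any 1 heart left out. Both were also lost in DESeq2 (adjusted p = 0.066 and 0.0851). In the length-corrected fit Dars (0.24, 0.0948), Farsb (0.21, 0.168) and Iars (-0.15, 0.261) did not pass, and with library size alone Dars, Lars and Farsb did not (0.102 to 0.233).

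Of 17 genes of the unfolded protein response of the endoplasmic reticulum, 1 was higher and 2 were lower (17.6% called, against 25.8% of all genes; median 0.01). Sel1l, part of the machinery that clears misfolded proteins, was lower (log2 fold change -0.52, edgeR adjusted p = 0.00148), also with each heart left out. Ern1, the stress sensor IRE1, was lower (-0.64, 0.0199) and Creld2 higher (0.51, 0.0293), and both were lost without STAT3cKO replicate 3 (0.0672 and 0.0999), STAT3cKO replicate 91 (0.0728 and 0.0669), WT replicate 3 (0.073 and 0.0671) or WT replicate 4 (0.0562 and 0.114). In the length-corrected fit Ern1 was at -0.34 (0.162), Creld2 at 0.31 (0.139) and Sel1l at -0.28, where Sel1l passed (0.0292), and Creld2 was also lost with library size alone (0.107). Of 15 mitochondrial chaperones and proteases, 2 were higher and 1 was lower (20% called; median 0.02). Grpel1 was higher (0.35, 0.00893), as was Hspe1 (0.44, 0.00921), which did not pass without WT replicate 3 (0.0509) or in the length-corrected fit (0.11, 0.556). Dnaja3 was lower (-0.27, 0.0426) and kept its call only without WT replicate 3 among the fits with 1 heart left out (0.0545 to 0.146 in the other 5), and it did not pass in the length-corrected fit (0.0583). Grpel1 did not pass with library size alone (0.0598). Left-out hearts changed the number of higher genes to 1 without WT replicate 3 and to 3 without STAT3cKO replicate 91.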

How the data were processed

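The members and all gene lists were chosen with earlier results of these data known. The submitters' processing notes name HISAT2 and, as build, GRCm38. Values deposited by the authors are unnormalised whole-number read counts of each gene in 6 hearts. How reads were counted (program, annotation, strand, multiply mapped reads) is not given in the sources used here. After filterByExpr (minimum count 10) and TMM scaling, groups were compared with the robust quasi-likelihood test of edgeR 4.0.16 in R 4.3.3, with genotype as the only term. Each SE was derived from the fold change and its F statistic, and 95% intervals use the t distribution. Transcript lengths are those of the longest GENCODE M21 transcript of each symbol (13580 genes tested had one). The length-corrected fit uses as offset the regression of each heart's log2 CPM deviation on length and GC content (splines, 5 degrees of freedom). Mars1 and Dele1 were found in the table under the synonyms Mars and 0610009O20Rik. The rule for named genes took all members, and up to 4 genes of each other list with the smallest adjusted p under 0.05. The alternatives were DESeq2 size factors, upper-quartile factors, library size alone, no low-count filter, a stricter filter (1 CPM in 3 libraries and a mean count of 50), DESeq2 1.42.0, limma-voom (limma 3.58.1), no robust estimation, counts without mitochondrial and haemoglobin genes, the length-corrected fit and leaving out each heart. The edgeR test was also run on simulated counts with known changes. They had a single dispersion for all genes and no length trend, so this run does not cover the length trend of these data.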

Additional observations from a re-analysis of the deposited data

How the results depend on the processing

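No paired analysis was possible because the groups share a single replicate number. Shmt2 and Mthfd2 kept direction and call in all 16 alternatives. With library size alone, 1 member was higher and over all genes 1109 were higher, and in the length-corrected fit 1145 of all genes were lower. Leaving out each heart in turn gave 1 to 5 members higher, 1 lower, and over all genes 1237 to 1887 higher and 1198 to 1999 lower. The log2 fold change of Phgdh was -0.047 to 0.97 with a heart left out, negative without WT replicate 4. In the eIF2 list the higher genes were 1 with library size alone and 2 without the low-count filter or in DESeq2 (1 to 2 with a heart left out, 1 to 4 lower). Among ATF4 partners and targets 2 were higher with library size alone and 3 in the length-corrected fit (1 to 5 with a heart left out), and 2 were lower with library size alone, no filter, no robust estimation, DESeq2 or limma-voom and 0 in the length-corrected fit (0 to 2). Among transporters 1 to 2 were higher and 1 lower with a heart left out. Among synthetases 0 were higher with library size alone and 1 without the filter or in the length-corrected fit (0 to 2 with a heart left out), and 1 was lower in the length-corrected fit or DESeq2 (1 in each fit with a heart left out). In the serine list 0 were higher with library size alone and 1 in the length-corrected fit (0 to 2), and the lower genes were 3 with library size alone, 2 without the filter and 1 without robust estimation, in DESeq2 or in limma-voom (0 to 2). In the endoplasmic reticulum list 0 were higher with library size alone or in the length-corrected fit and 2 without the filter (0 to 1), and 1 was lower in the length-corrected fit (1 to 2). Among mitochondrial chaperones 1 was higher with library size alone or in the length-corrected fit (1 to 3), and 4 were lower with library size alone, 2 without the filter and 0 in the length-corrected fit (0 to 1). The causes were not tested. The members' median log2 fold change was 0.20 in the length-corrected fit and 0.27 to 0.50 with a heart left out. The interval of Phgdh, with 6 to 28 counts per heart, is the widest of the members.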

Other observations

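Outside the rule for named genes, Nupr1, a small nuclear protein of the stress response, was at 12.4, 9.74 and 22.5 CPM in STAT3cKO replicates 3, 6 and 91, against 4.53, 8.35 and 4.06 CPM in WT replicates 1, 3 and 4. The groups did not overlap, as for 43.0% of all genes tested, and Nupr1 did not pass (log2 fold change 1.41 ± 0.42 (SE), edgeR adjusted p = 0.0545). Ddit4, an inhibitor of mTOR signalling, was at 68.2, 145 and 62.1 CPM in STAT3cKO replicates 3, 6 and 91, against 51.7, 53.3 and 21.3 CPM in WT replicates 1, 3 and 4 (log2 fold change 1.12 ± 0.55, edgeR adjusted p = 0.222). Its highest level was in STAT3cKO replicate 6, the heart with the lowest level of Atf4, Atf5, Ddit3, Trib3 and Mthfd2 among the STAT3cKO hearts. Replicate 6 was the highest STAT3cKO heart for 36.5% of all genes tested. Aldh1l2, the mitochondrial enzyme that oxidises formyl-folate, was at 8.26, 9.67 and 4.54 CPM in STAT3cKO hearts, against 9.93, 14.7 and 13.5 CPM in WT hearts in the replicate order given above. Its log2 fold change of -0.77 ± 0.26 did not pass (edgeR adjusted p = 0.0548). Gpt2, a mitochondrial alanine aminotransferase, was at 25.4, 25.4 and 14.0 CPM in STAT3cKO hearts, against 32.3, 30.7 and 37.0 CPM in WT hearts (log2 fold change -0.63 ± 0.21, edgeR adjusted p = 0.061). For both enzymes STAT3cKO replicate 91, where Atf4 and Mthfd2 were highest, held the lowest level. Among the STAT3cKO hearts, replicate 91 was the lowest for 32.7% of all genes tested. These 4 genes were chosen after their values were seen.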
